A study of Mus musculus with 40 samples.

Results

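The genes described are 8 that carry the first steps of branched-chain amino acid breakdown, chosen by symbol from the 20295 genes of the count table: *Bcat1*, *Bcat2*, *Slc25a44*, *Bckdha*, *Bckdhb*, *Dbt*, *Bckdk* and *Ppm1k*. All 8 are in the table and all 8 were among the 13277 genes with enough counts to be tested. Their poly(A) RNA was measured in brown adipose tissue of 40 male mice, 5 in each of 8 groups, all housed at 29 °C. In the first cohort, C-3BO mice carried a *Gpr3* transgene under the CAG promoter, switched on by *Ucp1*-Cre in brown and beige adipocytes, and their control littermates carried either the transgene without Cre or Cre without the transgene. These mice were 13 to 19 weeks old and ate chow or, for 7 days, a high-fat diet (HFD) with 60 kcal% fat. In the second cohort, 15-week-old mice labelled wildtype, which were control littermates of an inducible *Gpr3* line, received CL-316,243 (CL), an agonist of the beta3-adrenergic receptor, at 1 mg/kg, or saline. The injections were given into the peritoneum daily for 9 days, and on HFD they began 2 days before the change of diet.

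Leucine, isoleucine and valine lose their amino group to a branched-chain aminotransferase, which is cytosolic (*Bcat1*) or mitochondrial (*Bcat2*). SLC25A44 is the carrier known to bring these amino acids into the mitochondria of brown fat, which burns them as a fuel during heat production. The resulting ketoacids are oxidised irreversibly by the branched-chain ketoacid dehydrogenase complex, whose decarboxylase has an alpha (*Bckdha*) and a beta subunit (*Bckdhb*) and whose core is the transacylase *Dbt*. A kinase, *Bckdk*, phosphorylates the alpha subunit and switches the complex off, and a mitochondrial phosphatase, *Ppm1k*, removes the phosphate.

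In the mm9 annotation of the files, *Bckdha* (NM_007533) lies on the minus strand at chr7:26414871-26443780 and *Bckdhb* (NM_199195) on the plus strand at chr9:83842388-84017847. *Dbt* (NM_010022) lies at chr3:116215997-116252899 and *Slc25a44* (NM_001145876) at chr3:88214416-88229063. *Bckdk* (NM_009739) lies at chr7:135047587-135053178 and *Ppm1k* (NM_175523) at chr6:57456496-57485420. *Bcat2* (NM_009737) lies at chr7:52825523-52845080 and *Bcat1* (NM_007532) at chr6:144942355-145024677. None of the 8 overlaps another gene of the table. The counted model of *Bckdhb* starts 23631 bases downstream of the first coding transcript start of GENCODE M1 in the same build, so the exons counted may leave out part of its mRNA.

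Promoter sequences of RefSeq (GRCm38.p6, 250 bases before to 50 bases after a transcription start) were matched for 6 of the 8 genes, *Dbt* and *Slc25a44* being those with no entry. The 3 printed run in the direction of transcription and were chosen because they belong to both subunits of the decarboxylase, which rose with treatment, and to the kinase, for which no change was called. Capitals mark AGGTCA, the hexamer that many nuclear receptors recognise. The promoters are *Bckdha* (chr7:25658712-25659011, minus strand), the upstream promoter of *Bckdhb* (chr9:83924887-83925186, plus strand) and *Bckdk* (chr7:127903823-127904122, plus strand).
Bckdha: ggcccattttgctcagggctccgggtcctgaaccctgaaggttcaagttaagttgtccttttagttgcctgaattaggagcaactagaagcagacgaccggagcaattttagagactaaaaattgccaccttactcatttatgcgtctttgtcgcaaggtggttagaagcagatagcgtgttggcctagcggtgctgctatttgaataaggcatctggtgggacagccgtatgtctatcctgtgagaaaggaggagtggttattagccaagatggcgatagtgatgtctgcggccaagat
Bckdhb: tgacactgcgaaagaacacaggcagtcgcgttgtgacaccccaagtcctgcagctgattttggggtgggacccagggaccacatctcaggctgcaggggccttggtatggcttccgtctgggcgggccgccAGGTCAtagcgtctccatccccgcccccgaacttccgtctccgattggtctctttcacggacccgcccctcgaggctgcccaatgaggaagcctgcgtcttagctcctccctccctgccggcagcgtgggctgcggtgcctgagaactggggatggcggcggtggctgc
Bckdk: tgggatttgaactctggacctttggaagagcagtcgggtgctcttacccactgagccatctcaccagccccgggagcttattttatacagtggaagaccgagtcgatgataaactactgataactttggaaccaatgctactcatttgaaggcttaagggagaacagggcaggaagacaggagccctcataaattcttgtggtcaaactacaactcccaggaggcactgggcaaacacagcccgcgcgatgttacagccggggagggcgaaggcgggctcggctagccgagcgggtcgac
AGGTCA was searched together with the core of the cAMP response element, which is TGACG, and with the E-box, which is CACGTG. Each of the 3 motifs was searched on both strands in all promoters of the 6 matched genes. AGGTCA occurred in the upstream promoter of *Bckdhb*, with its first base 119 bases before the start. It also occurred in *Ppm1k* and in the *Bcat1* promoter at chr6:145048763-145049062. None of the 3 motifs occurred in the downstream promoter of *Bckdhb* (chr9:83948531-83948830), the other *Bcat1* promoter, or the promoters of *Bckdha* and *Bckdk*. Which start the counted *Bckdhb* RNA came from was not tested. TGACG occurred once, in *Ppm1k*. Of all 32851 mouse promoters of this length, 16.3% held AGGTCA, 20.8% TGACG and 7.15% CACGTG.

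Total counts per library lay between 849126 and 15260516, the lowest being HFD saline replicate 4. *Gpr3* lay between 266 and 918 CPM (counts scaled to a common library size with edgeR's TMM factors) in the C-3BO mice and at or below 0.743 CPM in their control littermates. In the injected mice it lay at or below 1.18 CPM except in chow CL replicate 3, which had 9.15 CPM from 99 counts. The 8 markers of brown adipocytes were detected in each group, and their summed level was higher in the treated mice, with medians of 5120 CPM in chow control against 10900 in chow C-3BO, 8300 in HFD control against 19300 in HFD C-3BO, 4590 in chow saline against 11100 in chow CL, and 5750 in HFD saline against 13600 in HFD CL. In bulk tissue, fewer cells of a type and less RNA per cell cannot be told apart. The summed level of 10 skeletal muscle markers had medians of 8340 CPM in chow control, 1750 in chow C-3BO, 1270 in chow saline and 86.7 in chow CL mice, against 13.1 to 227 in the 4 HFD groups. The summed level of 7 macrophage markers reached 247 to 631 CPM in HFD saline mice and 77.5 to 331 CPM in the other groups. Over the groups, the median summed levels lay between 845 (chow C-3BO) and 1650 CPM (HFD control) for 4 endothelial markers, 73.9 and 296 CPM for 10 liver markers, 13200 and 17100 CPM for 6 general adipocyte markers, and 117 (chow C-3BO) and 505 CPM (HFD control) for 3 white adipocyte markers. The 3 white adipocyte markers did not move together: on HFD against chow in control mice, 1 was called higher and 2 lower. In C-3BO mice against control on HFD, 1 was higher and 1 lower. Counts of *Lcn8*, a transcript of the epididymis, occurred in the HFD saline and HFD CL mice, and in HFD C-3BO replicates 4 and 5.

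Levels of different genes were compared per kilobase of exon counted. *Bckdha* was the most abundant, with a median over the 40 libraries of 494 CPM per kb. Its mean was at or above that of 99.1% of the tested genes. The medians were 110 CPM per kb for *Bckdhb* and 83.5 for *Dbt*, and thus below that of the alpha subunit with which their proteins form a complex. *Bcat2* (73.7 CPM per kb), *Slc25a44* (59.6) and *Bckdk* (54.3) followed. *Ppm1k* was lower, at 11.1 CPM per kb. *Bcat1* was barely detected, at 0.176 CPM per kb and, by its mean, in the lowest 2.06% of tested genes. The mitochondrial aminotransferase was thus the predominant one at the RNA level. Between the lowest and the highest of the 8 group means, *Bckdhb* differed 2.19-fold, *Bckdha* 2.00-fold, *Dbt* 1.94-fold, *Ppm1k* 1.66-fold, *Slc25a44* 1.43-fold, *Bcat2* 1.32-fold and *Bckdk* 1.23-fold. *Bcat1* differed 5.61-fold at its low level.

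In the order of the 8 group means, *Bckdha* was highest in HFD C-3BO and chow C-3BO mice, at 1170 ± 127 and 1170 ± 158 CPM (SD, n = 5), followed by chow CL mice at 967 ± 108 CPM. The drop to the chow CL mice exceeded the SD, as did that from chow control (856 ± 83.4) to HFD control mice (696 ± 142), and the other neighbours in the order lay within their SD. *Bckdhb* stepped down by more than the SD from HFD C-3BO (241 ± 8.48 CPM) to HFD CL (197 ± 9.49 CPM) and again to chow C-3BO mice (169 ± 7.75 CPM), and a further such step led from HFD saline (124 ± 11.3 CPM) to chow saline mice (110 ± 9.84 CPM). *Dbt* was highest in the 4 treated groups, from 286 ± 37.6 to 356 ± 45.2 CPM, and its only step above the SD led down to the 4 untreated groups, from 183 ± 16.3 to 207 ± 55.6 CPM. *Slc25a44* had 1 such step, from chow saline (220 ± 31.4 CPM) to chow control mice (179 ± 18 CPM), both untreated. For *Bcat2*, *Bckdk* and *Ppm1k*, no neighbours in the order differed by more than their SD.

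**Figure D1:**
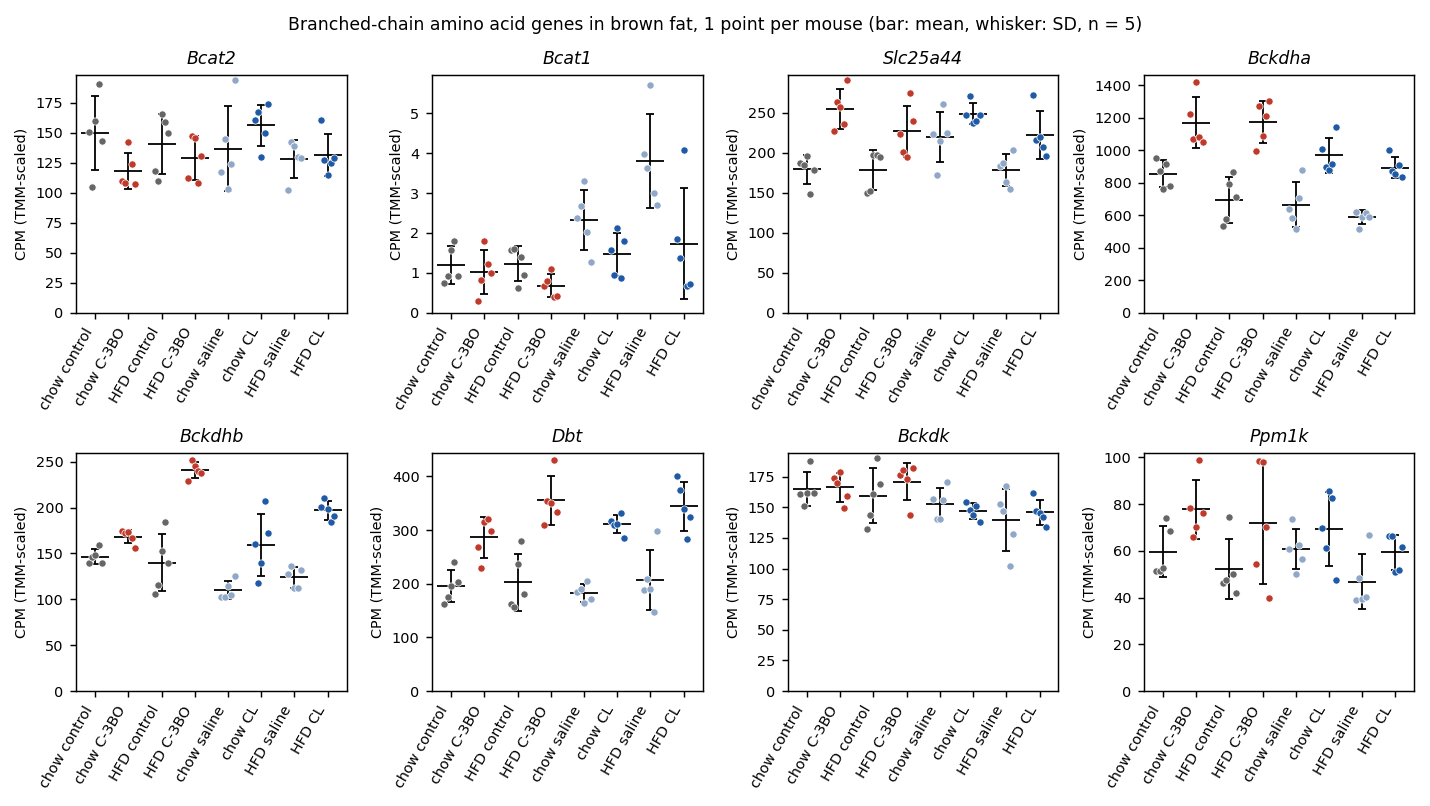
CPM of the 8 genes on a linear axis, with 1 point per mouse and 5 mice in each of the 8 groups (grey: control, red: C-3BO, light blue: saline, dark blue: CL). Bars are group means and whiskers are SDs. *Bckdha*, *Bckdhb* and *Dbt* lie higher in the treated groups, whereas *Bckdk* ranges from 102 to 190 CPM over all mice.

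The 3 transcripts of the dehydrogenase complex among the 8 genes were higher in CL mice on either diet and with the transgene on HFD. With the transgene on chow, 2 of them were higher. The kinase passed the test in none of these 4 comparisons. Of the 8 genes, 3 rose and 0 fell with CL on chow, where 15.3% of all tested genes changed and 9.16% rose and 6.13% fell. With CL on HFD, 4 rose and 1 fell, against 23.5% of all genes changed, 12.7% higher and 10.8% lower. In C-3BO mice 3 rose and 0 fell on chow (31.6% of all genes changed, 15.8% higher, 15.9% lower), and 4 rose and 0 fell on HFD (34.8% changed, 19.3% higher, 15.5% lower). *Bcat1* with CL on HFD was the single one to pass the study's further limit of 1 on the log2 scale, which 4.11% of all genes passed in that comparison. Scaling by library totals alone, without TMM factors, moved the median log2 difference of all genes by -0.14 to -0.20 in these comparisons and the share of calls that were higher from 59.9% to 26.6% (CL on chow), 54.0% to 27.9% (CL on HFD), 49.8% to 20.2% (C-3BO on chow) and 55.3% to 30.1% (C-3BO on HFD). Changes are given relative to the TMM scaling.

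*Bckdha*, which encodes the alpha subunit and carries the site of regulation, had 636, 585, 513, 708 and 879 CPM in the 5 chow saline mice and 1010, 897, 876, 918 and 1140 CPM in the chow CL mice. The groups touched at a single pair, with chow saline replicate 5 just above the lowest CL mouse. The difference was 0.54 ± 0.123 on the log2 scale (standard error, edgeR adjusted p = 0.00208). On HFD the saline mice had 622, 514, 591, 615 and 591 CPM and the CL mice 1000, 873, 853, 908 and 833 CPM, with no overlap and a log2 difference of 0.61 ± 0.124 (edgeR adjusted p = 0.000355). Groups that did not overlap, with the treated mice higher, were found for 5.88% of all genes with CL on chow, 9.68% with CL on HFD, 10.5% in C-3BO mice on chow and 11.4% on HFD.

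In the first cohort, *Bckdha* had 952, 875, 760, 913 and 780 CPM in the chow control mice and 1220, 1070, 1420, 1080 and 1050 CPM in the chow C-3BO mice. Each C-3BO mouse exceeded each control, by 0.45 ± 0.123 on the log2 scale (edgeR adjusted p = 0.00508). Unscaled library totals gave a difference of 0.24, which was not called (edgeR adjusted p = 0.0687). On HFD the controls ranged widely, with 534, 575, 795, 867 and 709 CPM, and the C-3BO mice had 996, 1270, 1090, 1210 and 1300 CPM. These groups did not overlap either, and the log2 difference was 0.75 ± 0.123 (edgeR adjusted p = 9.05e-06).

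*Bckdhb*, the beta subunit, had 103, 102, 115, 105 and 125 CPM in the chow saline mice and 160, 118, 139, 207 and 172 CPM in the chow CL mice. Chow CL replicate 2 fell within the range of the saline mice, and the log2 difference was 0.53 ± 0.110 (edgeR adjusted p = 0.00076). On HFD the values were 128, 136, 112, 112 and 132 CPM with saline and 201, 210, 198, 184 and 191 CPM with CL, without overlap and with a log2 difference of 0.66 ± 0.112 (edgeR adjusted p = 3.29e-05). The CL mice on HFD lay close together, within 184 to 210 CPM.

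On chow *Bckdhb* had 140, 146, 148, 159 and 140 CPM in controls and 174, 172, 173, 167 and 156 CPM in C-3BO mice, and the log2 difference of 0.20 ± 0.110 was not called (edgeR adjusted p = 0.156). It was called with only the compared libraries (0.21, edgeR adjusted p = 0.0465) and with a replicate block (0.21, edgeR adjusted p = 0.0413), and under unscaled library totals it was 0.0065 (edgeR adjusted p = 0.971). On HFD it had 106, 116, 153, 184 and 140 CPM in controls and 229, 252, 245, 240 and 238 CPM in C-3BO mice, which was the highest group mean of this gene, 241 ± 8.48 CPM (SD, n = 5). The HFD groups were far apart, with a log2 difference of 0.78 ± 0.110 (edgeR adjusted p = 7.17e-07). The effect of C-3BO on HFD exceeded that on chow by 0.58 ± 0.155 (log2, edgeR adjusted p = 0.0375), a test that 2.08% of all genes passed. This call was lost when any one of 16 of the 20 libraries was left out, with edgeR adjusted p-values up to 0.12, and also without HFD C-3BO replicates 4 and 5 (0.58, edgeR adjusted p = 0.0895).

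*Dbt*, the transacylase core, had 184, 191, 164, 205 and 171 CPM in chow saline mice and 317, 310, 312, 332 and 285 CPM in chow CL mice. These groups did not overlap and differed by 0.77 ± 0.143 (log2, edgeR adjusted p = 0.000251). On HFD it had 189, 208, 191, 148 and 298 CPM with saline and 400, 374, 340, 283 and 324 CPM with CL. HFD saline replicate 5 stood above the lowest CL mouse, and the log2 difference was 0.72 ± 0.145 (edgeR adjusted p = 0.000312).

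In the first cohort, *Dbt* had 162, 176, 196, 241 and 203 CPM in chow control mice and 269, 229, 315, 321 and 298 CPM in chow C-3BO mice. The ranges overlapped at 1 mouse of each group, and the log2 difference was 0.55 ± 0.143 (edgeR adjusted p = 0.00322). On HFD it had 163, 156, 236, 280 and 181 CPM in controls and 310, 354, 351, 430 and 333 CPM in C-3BO mice, without overlap and with a log2 difference of 0.81 ± 0.144 (edgeR adjusted p = 3e-05). The rises of *Dbt* were called in each of the 17 or 18 alternative analyses of each of the 4 comparisons.

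Muscle transcripts moved with treatment on chow, where 9 of the 10 muscle markers fell with CL, and their part in the chow results was not tested. In HFD C-3BO mice and their controls, the summed level of these markers lay between 5.97 and 262 CPM. Between these groups 8 of 9 tested liver markers were higher, with a median log2 difference of 4.94, and their summed level reached 510 and 521 CPM in HFD C-3BO replicates 4 and 5 against 50.7 to 101 CPM in the other C-3BO mice and 57.1 to 104 CPM in controls. In the same comparison 3 of 4 endothelial markers were lower. Without HFD C-3BO replicates 4 and 5, the log2 differences were 0.69 for *Bckdha* (edgeR adjusted p = 0.000411), 0.79 for *Bckdhb* (edgeR adjusted p = 1.73e-05) and 0.74 for *Dbt* (edgeR adjusted p = 0.000848). The part of the endothelial markers was not tested.

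*Slc25a44*, the mitochondrial carrier, had 188, 185, 196, 149 and 179 CPM in chow control mice and 228, 264, 257, 236 and 291 CPM in chow C-3BO mice. All C-3BO mice lay above all controls, and the log2 difference was 0.51 ± 0.108 (edgeR adjusted p = 0.000394). On HFD it had 150, 152, 197, 198 and 195 CPM in controls and 224, 201, 195, 275 and 240 CPM in C-3BO mice. These ranges overlapped, and the log2 difference of 0.35 ± 0.108 was called (edgeR adjusted p = 0.011), but not without HFD C-3BO replicates 4 and 5, where it was 0.21 (edgeR adjusted p = 0.199). It was 0.18 under unscaled library totals (edgeR adjusted p = 0.114), and the call was also lost without HFD control replicate 1 (edgeR adjusted p = 0.0641), HFD control replicate 2 (0.061) or HFD C-3BO replicate 4 (0.0757).

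With CL on HFD, *Slc25a44* had 273, 216, 220, 207 and 196 CPM against 184, 187, 163, 155 and 204 CPM with saline, a log2 difference of 0.31 ± 0.109 (edgeR adjusted p = 0.0362). Leaving out HFD CL replicate 1, the highest value, gave 0.22 (edgeR adjusted p = 0.16), and 5 other single libraries also decided this call. Under unscaled library totals it was 0.16 (edgeR adjusted p = 0.208). On chow the CL mice had 248, 271, 238, 240 and 248 CPM and the saline mice 224, 173, 215, 261 and 225 CPM. The groups overlapped and the log2 difference of 0.18 ± 0.108 was not called (edgeR adjusted p = 0.27).

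*Bcat2*, the mitochondrial aminotransferase, was called in none of the 4 treatment comparisons, with log2 differences of 0.20 and 0.04 with CL on chow and HFD, and -0.34 and -0.12 in C-3BO mice on chow and HFD. On chow it had 151, 105, 160, 191 and 143 CPM in control mice and 110, 108, 142, 124 and 107 CPM in C-3BO mice. The groups overlapped, and the edgeR adjusted p was 0.0669. DESeq2 gave a log2 difference of -0.36 and called it (DESeq2 adjusted p = 0.0462), and it was called in 5 of the 17 alternative analyses, reaching -0.55 under unscaled library totals (edgeR adjusted p = 0.0034) and -0.45 without chow control replicate 2 (edgeR adjusted p = 0.017). Without chow control replicate 4, the highest control, it was -0.23 (edgeR adjusted p = 0.27). The *Bcat2* response to CL and to C-3BO on chow differed by -0.54 (C-3BO minus CL, edgeR adjusted p = 0.109).

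*Bcat1*, the cytosolic aminotransferase, was measured by few counts. In HFD saline mice it had 3.99, 3.62, 5.70, 3.01 and 2.70 CPM, from 29, 23, 47, 3 and 17 counts, and in HFD CL mice 1.85, 1.36, 4.07, 0.66 and 0.727 CPM, from 11, 8, 14, 4 and 4 counts. It was lower with CL by a log2 difference of -1.27 ± 0.406 (edgeR adjusted p = 0.0198), although HFD CL replicate 3 exceeded 4 of the 5 saline mice. The call was lost without HFD saline replicate 3 (edgeR adjusted p = 0.0851), HFD CL replicate 4 (0.0693) or HFD CL replicate 5 (0.0611). In the other 3 treatment comparisons it had log2 differences of -0.66, -0.21 and -0.78 and was not called. The group mean of *Bcat1* was highest in the HFD saline mice, 3.80 ± 1.17 CPM, in which the macrophage markers were also highest, with a median summed level of 328 CPM against 195 CPM in HFD CL mice. The part of these markers in the *Bcat1* difference was not tested.

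*Bckdk*, the inhibitory kinase, varied least. It had 157, 140, 140, 156 and 171 CPM in chow saline mice and 154, 148, 144, 151 and 138 CPM in chow CL mice. On HFD, controls had 132, 144, 161, 190 and 169 CPM and C-3BO mice 176, 180, 173, 144 and 182 CPM. Its log2 differences were -0.06 ± 0.0948 and 0.04 ± 0.0968 with CL on chow and HFD, and 0.01 ± 0.0949 and 0.10 ± 0.0950 in C-3BO mice on chow and HFD, with edgeR adjusted p-values of 0.426 to 0.964. Under unscaled library totals, the sign turned in 3 of the 4 comparisons, and none was called.

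*Ppm1k*, the activating phosphatase, had 46.4, 47.6, 74.4, 50.2 and 42.1 CPM in HFD control mice and 54.3, 98.6, 98.0, 70.1 and 39.7 CPM in HFD C-3BO mice. The C-3BO mice spanned the whole range of the controls, and the log2 difference of 0.47 ± 0.190 was at the limit (edgeR adjusted p = 0.0502). Without HFD control replicate 3, the highest control, it was 0.63 (edgeR adjusted p = 0.0105), and without HFD C-3BO replicates 4 and 5 it was 0.68 (edgeR adjusted p = 0.00958). Of 18 alternative analyses, 7 called this difference and 11 did not, with log2 differences down to 0.31. In chow C-3BO mice the log2 difference was 0.39 (edgeR adjusted p = 0.119), and with CL it was 0.20 on chow and 0.33 on HFD (edgeR adjusted p = 0.537 and 0.244).

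**Figure D2:**
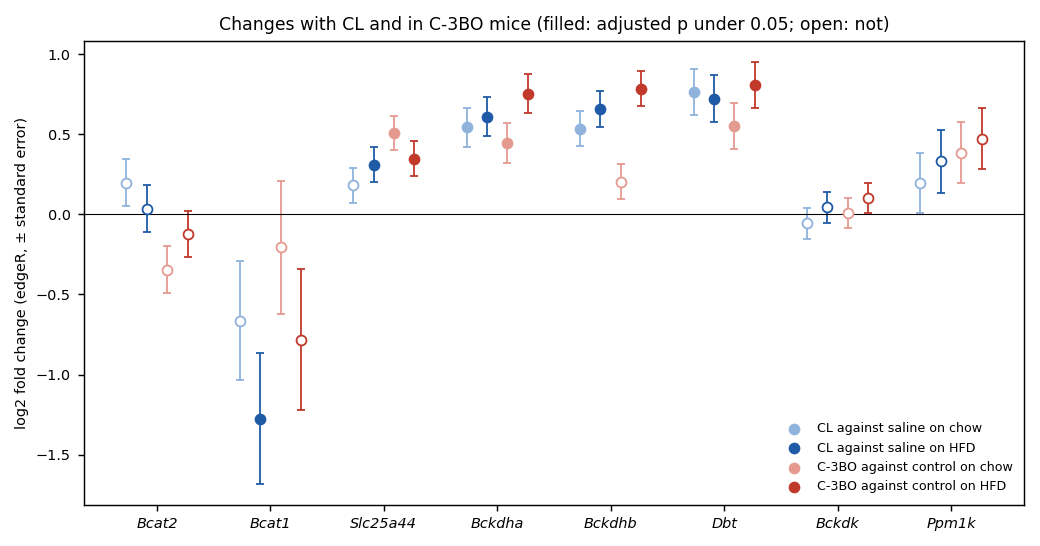
Log2 fold changes of the 8 genes by edgeR, with standard errors as whiskers, for CL against saline (blue) and C-3BO against control (red), light on chow and dark on HFD. Filled points passed an adjusted p of 0.05. The filled points of *Bckdha*, *Bckdhb* and *Dbt* lie between 0.45 and 0.81, and the *Bckdk* points lie within 0.10 of 0.

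The effects of CL and of C-3BO were compared directly for each gene, each against its own cohort's controls. None of the 8 genes differed between the models at an edgeR adjusted p of 0.05, on chow (6.24% of all genes did) or on HFD (1.80%). None differed in its response to CL between the diets, where 2 of all tested genes did (0.0151%). At an unadjusted edgeR p under 0.05 there were 3 between the models on chow (*Bcat2*, *Bckdhb* and *Slc25a44*) and 0 in the others, and DESeq2 called 0 of the 8 in each of these comparisons.

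The diet alone was compared within each of the 4 treatments, in comparisons that share their groups with those above. In control mice 0 of the 8 genes were called, against 32.9% of all genes, and only *Bckdha* lay below an unadjusted p of 0.05. For *Bckdha* in these mice the log2 difference was -0.30 (edgeR adjusted p = 0.0575), and DESeq2 called it lower on HFD (-0.32, DESeq2 adjusted p = 0.0311). In saline mice 0 of 8 were called as well, against 15.5% of all genes. There *Slc25a44* (-0.29) and *Bcat1* (0.75) lay below an unadjusted edgeR p of 0.05, and DESeq2 also called 0. In C-3BO mice 1 of the 8 was called against 25.7% of all genes. This was *Bckdhb*, which was higher on HFD by 0.51 ± 0.110 (log2, edgeR adjusted p = 0.000622), with all 5 HFD mice above all 5 chow mice, as for 8.44% of all genes. In CL mice *Bckdhb* was again the single one called, against 23.6% of all genes, and was higher on HFD by 0.31 ± 0.110 (edgeR adjusted p = 0.0389). Leaving out any one of 7 of the 10 libraries ended the call in CL mice, with log2 differences of 0.21 to 0.31. The HFD libraries of the injected mice had fewer counts than their chow libraries, with 849126 to 7284129 against 7954684 to 15260516. They also held *Lcn8*, with 0 counts on chow, so depth, such transcripts and diet cannot be told apart there. On HFD 7 of 9 tested liver markers were higher in saline and CL mice (median log2 differences 8.26 and 6.63), 7 in C-3BO and 0 in control mice. All 10 muscle markers were lower in control and C-3BO mice (medians -6.9 and -6.03), and 0 were called in saline and CL mice. The part of these markers in the diet results was not tested. Scaling by library totals alone moved the median of all genes by 0.15 to 0.18 in the diet comparisons and the share of calls that were higher from 46.9% to 71.2% in control, 52.6% to 81.8% in C-3BO, 48.1% to 84.8% in saline and 46.1% to 79.7% in CL mice.

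Ratios of transcripts were taken within each library, after 0.5 CPM was added. The ratio of the kinase *Bckdk* to its substrate *Bckdha*, on the log2 scale, was -2.09 ± 0.183 in chow saline and -2.71 ± 0.193 in chow CL mice (SD, n = 5 each), a difference of -0.61. It was lower by 0.43 in C-3BO mice on chow and by 0.66 on HFD. In these 3 comparisons the groups did not overlap, and the two-sided exact permutation p was 0.00794, the smallest that 5 against 5 mice can give. With CL on HFD the ratio was lower by 0.53 (exact permutation p = 0.0238). After Benjamini-Hochberg adjustment over all 40 ratio comparisons, 0 were below 0.05, the lowest adjusted value being 0.0529 (exact permutation test), which the values at the smallest p share. The ratio of *Bckdk* to the phosphatase *Ppm1k* differed by -0.23 to -0.38 in the 4 comparisons, with exact permutation p-values of 0.0476 to 0.349 and overlapping groups throughout. The ratio of *Dbt* to *Bckdha* differed by 0.07 to 0.21, with exact permutation p-values of 0.278 to 0.540.

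*Bckdha* was also set against *Pdha1*, the alpha subunit of pyruvate dehydrogenase, the related complex that oxidises the product of glycolysis. The log2 ratio was -1.30 ± 0.213 in HFD control and -0.57 ± 0.162 in HFD C-3BO mice, higher by 0.73 (exact permutation p = 0.00794, adjusted 0.0529). On HFD against chow it was higher by 0.66 in C-3BO and by 0.51 in CL mice, each with the same p-values and no overlap. In C-3BO mice all 10 muscle markers were lower on HFD, and their part in this ratio was not tested. With CL on chow, where both transcripts were higher, the ratio differed by 0.08 (exact permutation p = 0.587).

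**Figure D3:**
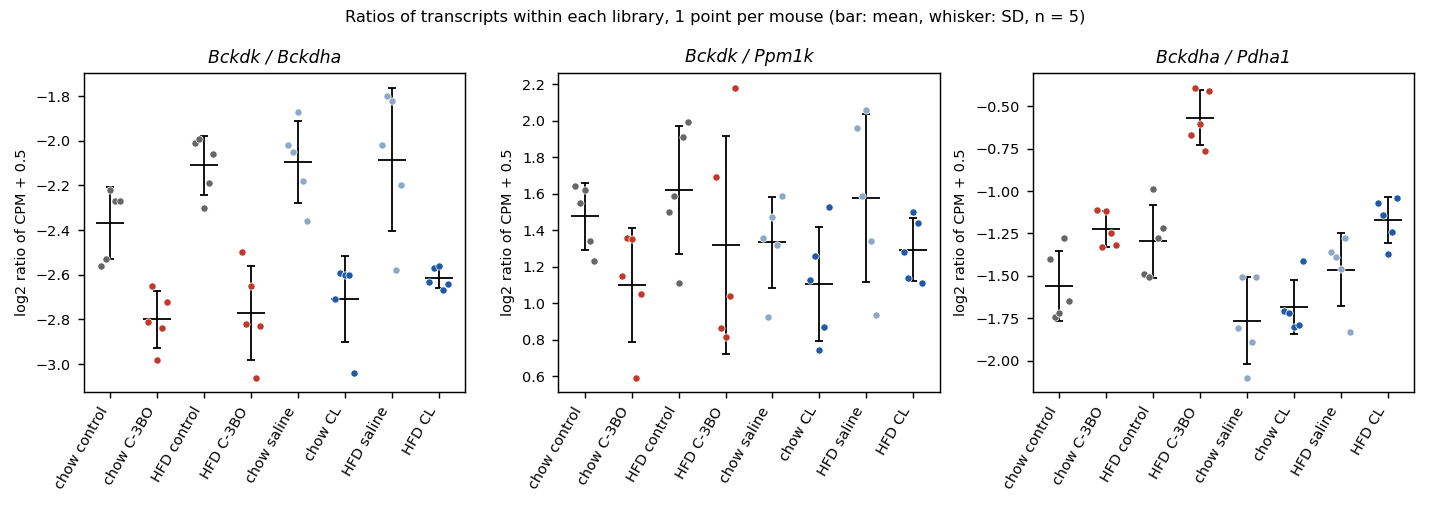
Log2 ratios of CPM (with 0.5 CPM added) within each library, 1 point per mouse, for the kinase to its substrate, the kinase to the phosphatase, and the alpha subunits of both dehydrogenases. Bars are group means and whiskers SDs of 5 mice. *Bckdk* to *Bckdha* is lower in the treated groups, and *Bckdha* to *Pdha1* is highest in HFD C-3BO mice.

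A list of 20 genes, named downstream here, was followed. It held genes that oxidise the products of the complex to acetyl-CoA, acetoacetate and succinyl-CoA, and *Dld*, which is itself a component of the complex. With CL on chow, 15 rose and 0 fell, with a median log2 difference of 0.40 against -0.01 over all tested genes. With CL on HFD, 14 rose and 2 fell (median 0.44 against -0.01). In C-3BO mice 11 rose and 3 fell on chow (median 0.27 against -0.03), and 14 rose and 0 fell on HFD (median 0.42 against -0.02). Of all genes, 15.3%, 23.5%, 31.6% and 34.8% changed in these comparisons. Under unscaled library totals the medians were 0.26, 0.30, 0.06 and 0.25. The counts higher and lower were then 10 and 0, 13 and 2, 8 and 3, and 12 and 1, in the same order. None of the called genes of this or the following lists turned its sign under these totals. *Mccc1*, the biotin-bearing subunit of methylcrotonyl-CoA carboxylase in leucine breakdown, had group means of 179 ± 27.5 CPM in chow saline and 326 ± 13.6 CPM in chow CL mice, and it rose by 0.78 to 0.95 on the log2 scale in the 4 comparisons. *Pcca*, the alpha subunit of propionyl-CoA carboxylase in valine and isoleucine breakdown, rose by 0.52 to 0.97. Both genes were without overlap between groups in all 4 comparisons. *Dld*, the dehydrogenase shared with the pyruvate and oxoglutarate complexes, rose by 0.75 with CL on chow, and *Mmaa*, which serves the cobalamin of methylmalonyl-CoA mutase, rose by 0.71 with CL and by 0.68 in C-3BO mice on HFD.

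*Hsd17b10*, the dehydrogenase of isoleucine breakdown, went the other way. It fell by 0.39 with CL on HFD (edgeR adjusted p = 0.018) and by 0.54 in C-3BO mice on chow (edgeR adjusted p = 0.000764), with group means of 180 ± 31.8 CPM in chow control and 124 ± 15.4 CPM in chow C-3BO mice. On HFD against chow, 2 of the 20 rose and 4 fell in control mice, where 32.9% of all genes changed, 2 rose and 1 fell in C-3BO mice (25.7% of all genes), and none was called by edgeR in saline or CL mice (2 and 1 of 20 at an unadjusted p under 0.05), where 15.5% and 23.6% of all genes changed. Under unscaled library totals, 15 rose and 0 fell in C-3BO mice, 4 and 0 in saline mice, and 3 and 0 in both control and CL mice. Among the called genes, the control mice gave *Acadsb* (-0.33), *Mmaa* (-0.33) and *Hibadh* (-0.27) as the largest falls, and the C-3BO mice gave *Mcee* (0.43), *Mmab* (-0.36) and *Echs1* (0.25).

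**Figure D4:**
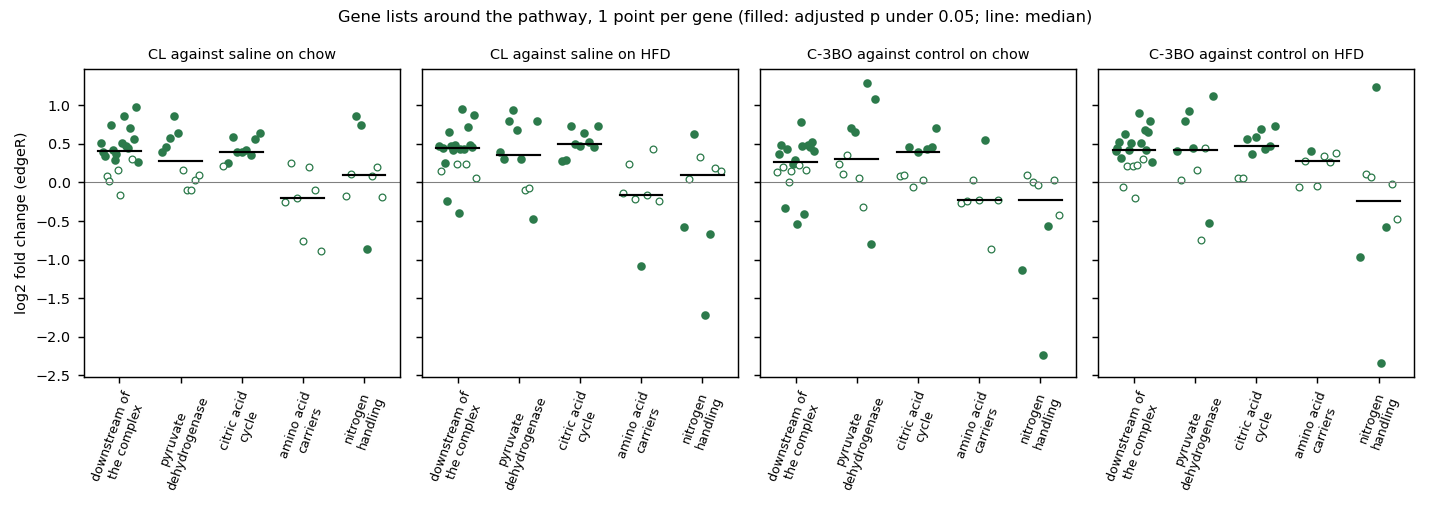
Log2 fold changes by edgeR of 5 gene lists in the 4 treatment comparisons, 1 point per gene, filled where the adjusted p was under 0.05, with the list's median as a line. The downstream and citric acid cycle genes lie mostly above 0, and the lowest point among the nitrogen genes is *Got2*.

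Of 10 genes of pyruvate dehydrogenase with its kinases and phosphatases, 5 were higher and 0 lower with CL on chow (15.3% of all genes changed), 7 and 1 on HFD (23.5%), 4 and 1 in C-3BO mice on chow (31.6%) and 5 and 1 on HFD (34.8%). With CL on HFD under unscaled library totals, 4 were higher and 1 lower. *Pdhx*, which holds the complex together, rose by 0.87 and 0.94 with CL on chow and HFD and by 0.93 in C-3BO mice on HFD. With the diet, 0 of these genes were higher and 6 lower on HFD in control mice (32.9% of all genes changed). The counts were 0 and 3 in C-3BO (25.7%), 1 and 4 in saline (15.5%) and 0 and 2 in CL mice (23.6%). The part of the muscle markers, which were lower on HFD in control and C-3BO mice, was not tested. *Pdk1*, a kinase that inhibits pyruvate dehydrogenase, rose by 0.45 to 0.68 on the log2 scale in the 4 treatment comparisons and fell by 1.05 to 1.44 with HFD in all 4 diet comparisons. *Pdk4*, a further such kinase, rose by 1.28 in C-3BO mice on chow. On HFD against chow, *Pdha1* fell by 0.65 in C-3BO and 0.62 in CL mice. Of its phosphatases, *Pdp2* rose in C-3BO mice by 1.09 on chow and 1.12 on HFD, while *Pdp1* fell by 0.79 and 0.52. Of 9 citric acid cycle genes, 8 and 9 rose with CL on chow and HFD and 5 and 7 in C-3BO mice, with none lower. The shares of all genes called were 15.3%, 23.5%, 31.6% and 34.8%. Under unscaled library totals, 4 were higher and 1 lower in C-3BO mice on chow (median 0.20 against 0.40), and 7 and 0 in each other comparison. *Sucla2* led the 9 genes with rises of 0.64 to 0.73. It encodes a subunit of succinyl-CoA ligase, at which the carbon of valine and isoleucine enters the cycle.

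Of 7 amino acid carriers of the plasma membrane, at most 1 was called in any treatment comparison: none with CL on chow by edgeR (3 of 7 at an unadjusted p under 0.05), *Slc43a1* with CL on HFD (-1.08, edgeR adjusted p = 0.0192), *Slc43a2* in C-3BO mice on chow (0.55, edgeR adjusted p = 0.00877) and *Slc3a2* in C-3BO mice on HFD (0.41, edgeR adjusted p = 0.0035). The shares of all genes called in these comparisons were 15.3%, 23.5%, 31.6% and 34.8%. These counts depended on the scaling: under unscaled library totals 0 were higher and 3 lower with CL on chow, 0 and 2 with CL on HFD, 0 and 2 in C-3BO mice on chow and 0 and 0 on HFD. On HFD against chow, 5 of the 7 were higher in C-3BO mice, where 25.7% of all genes changed. In control (32.9%) and in CL mice (23.6%) 2 were higher and 1 lower, and in saline mice (15.5%) 1 higher and 1 lower. *Slc7a8*, a light chain of the neutral amino acid exchanger, was higher on HFD by 1.18 in control, 1.79 in C-3BO and 1.16 in CL mice, and *Slc43a2* by 0.85 in control, 0.65 in C-3BO and 0.56 in saline mice.

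Among 8 genes of nitrogen handling, which receive the amino group, the mitochondrial aspartate aminotransferase *Got2* fell in all 4 treatment comparisons. It fell by 0.86 and 1.72 with CL on chow and HFD and by 2.24 and 2.34 in C-3BO mice. In the first cohort it went from 53.5 ± 9.65 to 11.3 ± 4.58 CPM on chow and from 29.9 ± 9.02 to 5.83 ± 1.47 CPM on HFD. Of the 8 genes, 2 were higher and 1 lower with CL on chow (15.3% of all genes changed) and 1 and 3 on HFD (23.5%). In C-3BO mice the counts were 0 and 3 on chow (31.6%) and 1 and 3 on HFD (34.8%). *Gpt*, the alanine aminotransferase, fell by 0.67 with CL on HFD and by 0.56 in C-3BO mice on chow. *Glul*, the glutamine synthetase, rose by 0.87 with CL on chow and by 0.63 on HFD, and the cytosolic *Got1* rose by 0.74 with CL on chow and by 1.23 in C-3BO mice on HFD. Under unscaled library totals, 0 of the 8 genes were called higher with CL on HFD and 3 lower. Of 6 transcriptional regulators, *Esrra* rose with CL on chow (0.32) and in C-3BO mice on HFD (0.35), *Mlxipl* fell by 0.49 with CL on chow, and *Ppara* fell by 0.52 in C-3BO mice on HFD. Of the 6, 1 was higher and 1 lower with CL on chow (15.3% of all genes changed) and in C-3BO mice on HFD (34.8%). None was called with CL on HFD (23.5%) or in C-3BO mice on chow (31.6%). Under unscaled library totals 0 were higher in each comparison, and 1, 2, 1 and 1 were lower, in the same order. With RLE factors, 0 were higher and 1 lower with CL on chow.

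Over the 40 libraries, Pearson's r of log2 CPM between pairs of the 8 genes lay between -0.65 (*Bcat1* with *Bckdha*) and 0.81 (*Bckdhb* with *Dbt*). After group means were taken out, the range was -0.23 to 0.58. These values are descriptions, and libraries share depth and tissue composition. *Bckdha* had its closest patterns among all tested genes in *Idh3g* (r = 0.97), a subunit of isocitrate dehydrogenase, *Coq6* (0.96), of ubiquinone synthesis, and *Acads* (0.94), a short-chain acyl-CoA dehydrogenase. For *Bckdhb* they were *Mdh2* (0.90), *Decr1* (0.89) and *Ppif* (0.89), and for *Dbt* 4931406C07Rik (0.94), *Lyrm5* (0.92) and *Mtch2* (0.92). With group means taken out, r was 0.952, 0.881 and 0.879 for the genes named with *Bckdha*. It was 0.545, 0.622 and 0.421 for those named with *Bckdhb*, and 0.737, 0.806 and 0.678 for those named with *Dbt*. *Slc25a44* was most like *Plin2* (0.85), which coats lipid droplets, and *Aspg* (0.85). *Bcat1* was most like *Col5a1* (0.82), *Medag* (0.82) and *Dcn* (0.81), of which the first and last encode extracellular matrix proteins. *Bcat2* was most like *Etfb* (0.70), *Nhp2* (0.67) and *Nme2* (0.66), *Bckdk* like *Morn2* (0.76), *Emc3* (0.75) and *Tpd52l1* (0.75), and *Ppm1k* like *Mtmr10* (0.78), *Nfia* (0.78) and *Acvr1c* (0.78).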

How the data were processed

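Brown adipose tissue RNA of 40 mice was sequenced as poly(A) TruSeq libraries on a HiSeq 1500. Alignment to mm9 (STAR) and counting over RefSeq exons (HOMER, iRNA-seq) were done by the authors. The deposited values are these raw counts, whole numbers per gene and mouse. Versions and strand setting are not given in the sources used here. The deposited exon lengths served for levels per kilobase.

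Groups came from the labels, and all libraries were used. Genes passing filterByExpr (minimum count 10) were fitted with edgeR 4.0.16 (quasi-likelihood test, TMM factors, 8 group means, R 4.3.3), with Benjamini-Hochberg adjustment over the 13277 genes and a threshold of 0.05. Standard errors were derived from F. CPM are counts per library total times TMM factor. Ratios were tested by two-sided exact permutation. DESeq2 1.42.0 and other scalings, filters, libraries and a replicate block were alternatives. The edgeR step was tested on simulated counts. Totals of 849126 to 15260516 counts put the smallest level shown, 3 counts, at 0.206 to 3.01 CPM, for counting error only. No 2 of a group's libraries held identical counts.

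The 8 genes and the lists were chosen with earlier results of these data known. From each other list and comparison, up to 3 called genes with the largest change and 1 of opposite direction were eligible to be named, and for each of the 8 genes the 3 most similar patterns. A few genes that this rule selected are not reported here. Brown adipocyte, muscle, macrophage, endothelial, liver, adipocyte and white adipocyte markers were summed per library.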

Additional observations from a re-analysis of the deposited data

Results flagged for a closer look

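Over the levels of the 8 genes and the library totals, 3 of the 72 groups of 5 mice held 1 value far from the other 4, where chance gives about 1 in 20. *Bckdha* was lowest in HFD saline replicate 2, at 514 CPM with the next at 591 CPM. *Bckdk* was lowest in HFD C-3BO replicate 4, at 144 CPM with the next at 173 CPM. *Ppm1k* was highest in HFD control replicate 3, at 74.4 CPM with the next at 50.2 CPM.

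Effects differed between diets or models by edgeR for 15 of the values reported here. Of all tested genes, 2.08% passed for the C-3BO effect between diets and 0.0151% for the CL effect between diets. Between models, 6.24% passed on chow and 1.8% on HFD. The 15 were drawn from tests of every gene followed here, and their number was not tested against these shares. Between the diets, the effect of C-3BO (HFD less chow, log2) differed by 0.58 for *Bckdhb* (edgeR adjusted p = 0.0375), 0.71 for *Mcee*, 0.52 for *Mmaa* and 0.65 for *Mdh2*, 1.26 for *Got1* and -0.93 for *Ppara*. *Mcee* and *Mmaa* both serve the conversion of methylmalonyl-CoA. *Mcee* fell from 104 ± 12.6 CPM in chow control to 78.1 ± 16.3 CPM in chow C-3BO mice and was 85.6 ± 21.4 CPM in HFD control and 106 ± 17.7 CPM in HFD C-3BO mice.

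On chow, the response in C-3BO mice less that to CL was -0.86 for *Mcee*, -0.54 for *Mmaa*, -1.38 for *Got2* and -0.64 for *Gpt*. Among genes of pyruvate dehydrogenase control it was 1.38 for *Pdk4*, 0.99 for *Pdp2* and -0.82 for *Pdp1*, and it was -0.45 for *Fh1*. On HFD the same difference was 0.62 for *Slc3a2*.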

How the results depend on the processing

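Over 721 single-gene results under an alternative, 631 kept their direction and their side of the threshold, 47 fell below it, 29 passed it and 14 turned their sign. All sign changes were in genes that were not called. With library totals alone, *Bcat2* and *Bckdk* turned with CL on HFD (-0.11 and -0.10), as did *Bckdk* in C-3BO mice on chow (-0.19) and HFD (-0.059). *Bckdk* in C-3BO mice on chow also turned with RLE factors (-0.0040), with at least 10 counts in every library (-0.0178) and with DESeq2 (-0.00459). With 1 library left out, the log2 differences ranged from -0.049 to 0.081 for *Bcat2* and from -0.020 to 0.12 for *Bckdk* with CL on HFD, and from -0.021 to 0.078 for *Bckdk* and -0.46 to 0.031 for *Bcat1* in C-3BO mice on chow.

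The count of the 8 genes called in C-3BO mice on chow was 5 with only the compared libraries and 6 with a replicate block. The count for HFD in control mice was 1 with RLE factors, with at least 10 counts in every library and with DESeq2, and with library totals alone that in C-3BO mice was 3 and that in saline mice 1. The count for HFD in CL mice was 0 with no filter, with only the compared libraries and with the replicate block. The count for the C-3BO effect between diets was 0 in these 3 settings and without HFD C-3BO replicates 4 and 5. With 1 library left out, the count was 3 to 5 for CL on HFD, 0 to 1 for HFD in control, saline and CL mice and for the C-3BO effect between diets and between models on chow, and 0 to 7 for the ratios (7 without chow control replicate 4 or without HFD saline replicate 4). The cause of these changes was not tested, except that a left-out library leaves fewer mice.

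Replicate numbers were not taken as pairs: the mean correlation of same-numbered libraries ranged from -0.136 to 0.172 over the 8 comparisons, and in none was every pair above 0.1. In C-3BO against control on chow 3 of 5 libraries correlated best with their own number. Depth limits *Bcat1* most, with 3 counts in HFD saline replicate 4.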

Other observations

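*Got2*, at 5.83 to 53.5 CPM, was the gene of the lists followed here that fell in each of the 4 treatment comparisons, whereas the genes of the ketoacid dehydrogenase complex rose or were not called. The part of other cell types in this difference was not tested.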
